A study of Mus musculus with 6 samples.

Results

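LINE element subfamilies are described here in RNA of mouse induced pluripotent stem cells (iPSCs, cells reprogrammed to a state like that of embryonic stem cells) with and without the transcription factor SRF. The members are the rows of the deposited count table whose class is LINE and whose mean is 10 or more counts over the 6 libraries. They number 138 of 158 LINE rows and of 1146 transposable element rows. By family, 120 members belong to L1, 4 to L2, 9 to CR1, 4 to RTE-X and 1 to RTE-BovB. The 120 L1 rows were split by name into 6 L1Md rows, 33 other rodent L1 rows (names that start with L1_Mus, L1_Mur, L1_Mm, L1_Rod, L1VL or Lx) and 81 remaining rows, called older L1 here. The 20 LINE rows under the minimum had at most 17 counts in any library. Just inside it lay L5 and L1MEh, with means of 10.7 and 11 counts, and just outside it L1M3c and X7C_LINE, with 9.83 and 9.50.

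The 3 libraries called SRF KO come from SRFΔ/Δ iPSCs, in which the Srf gene is deleted, and the 3 called WT from SRFf/f iPSCs, which carry the conditional allele. Both were kept in medium with serum, and bulk total RNA was sequenced as paired reads of 150 bp. The labels name neither the source of the recombinase nor whether replicates are clones, cultures or repeated preparations, so p-values measure the spread between these libraries, which may be technical. Srf itself averaged 3.97 ± 0.707 CPM in the SRF KO libraries against 34.5 ± 4.14 CPM in the WT libraries (SD, n = 3). CPM are counts scaled to a common library total by the trimmed mean of M values (TMM).

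LINEs are retrotransposons without long terminal repeats. An intact copy encodes an RNA-binding protein and an enzyme with endonuclease and reverse transcriptase activity, and it moves by copying its own RNA back into the genome. L1 is the family that is still mobile in the mouse, and its youngest subfamilies, named L1Md, include the A, T and Gf types with copies able to move. The F types of L1Md are older relatives. L2, CR1 and RTE elements are ancient and immobile in mammals, so RNA that contains them is mostly part of longer transcripts. In pluripotent cells L1 is restrained by DNA methylation, by histone H3 lysine 9 methylation with the HUSH complex, and by factors that act on its RNA.

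A subfamily has no single position, since it pools copies on many chromosomes, in introns, in exons and between genes. Each value therefore sums RNA started within the elements and RNA of genes that contain a copy, on either strand as far as the sources tell. Levels of different subfamilies are not compared, because they also depend on the number and length of copies. The consensus sequences of the subfamilies were not used here.

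Total counts were between 26321602 and 36680156 per library, and LINE members took between 0.732% and 0.871% of them. WT replicate 2 stood high for many LINE elements, and for rows of other classes of transposable elements. It had the highest level of all 6 libraries in 76 of the 138 members, against 23.8% of all rows tested, and the highest of the WT libraries in 101. It was also the highest of all 6 in 91.4% of SINE, 42.6% of DNA transposon and 32.3% of LTR rows. Its median log2 ratio to the mean of the other WT libraries was 0.24 over the members and -0.02 over all rows tested. Results are therefore also given without WT replicate 2, which was picked for its high LINE values. Leaving it out tends by itself to raise SRF KO over WT in LINE rows and to narrow the WT spread. Calls and p-values of that fit are thus descriptive. SRF KO replicate 2 had the highest summed LINE level of its group (8689 CPM, against 8030 and 7923 CPM) and was kept in that fit.

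The A, T and Gf subfamilies of L1Md rose in SRF KO, by between 1.28-fold and 1.53-fold. The F, F2 and F3 subfamilies did not pass the test. Thus 50% of the 6 rows passed, beside 41.1% of all rows tested (20.4% as higher). The groups did not overlap in 50% of the 6 rows, beside 51.4% of all rows (25.3% with SRF KO higher). L1Md_T, which held the most counts of any LINE row, stood at 1636, 1596 and 1531 CPM in SRF KO replicates 1 to 3 and at 1023, 1283 and 1123 CPM in WT replicates 1 to 3. The lowest SRF KO library was above the highest WT library. Its means of 1588 ± 53.5 and 1143 ± 131 CPM (SD, n = 3) gave a log2 fold change of 0.47 (SE 0.07, adjusted p 0.000352). This and every adjusted p of a single row is from the quasi-likelihood test of edgeR, adjusted by the Benjamini-Hochberg method across the 15611 rows tested (genes and transposable element subfamilies), and a row passes at an adjusted p under 0.05.

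L1Md_A, named for the type of its promoter repeats, stood at 276, 290 and 264 CPM in SRF KO, against 190, 246 and 210 CPM in WT. The groups did not overlap, and the log2 fold change was 0.36 (SE 0.08, adjusted p 0.00401). L1Md_Gf is the smallest of the 6 by count. It was at 42.9, 45.1 and 42.5 CPM in SRF KO, against 25.8, 32.6 and 27.0 CPM in WT, again without overlap. Its log2 fold change of 0.62 (SE 0.08, adjusted p 0.000123) was the largest of the 6 L1Md rows. WT replicate 2 was the highest WT library for each of the 3 subfamilies. Leaving out each library in turn gave values between 0.40 and 0.57 for L1Md_T, between 0.28 and 0.47 for L1Md_A and between 0.55 and 0.73 for L1Md_Gf, all past the threshold. Because these are bulk samples, a changed share of cells that express an element and a changed amount of RNA per cell cannot be told apart.

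The F types overlapped between the groups. L1Md_F2 was at 646, 698 and 656 CPM in SRF KO, against 617, 780 and 614 CPM in WT, with WT replicate 2 above every other library. Its log2 fold change was -0.0069, with a 95% confidence interval from -0.19 to 0.18 (adjusted p 0.956). L1Md_F3 had 0.03, with an interval from -0.12 to 0.19 (adjusted p 0.751). L1Md_F was at 76.2, 82.4 and 78.1 CPM in SRF KO, against 63.6, 82.3 and 60.8 CPM in WT, a log2 fold change of 0.20 with an interval from -0.0084 to 0.41 (adjusted p 0.116). Without WT replicate 2, L1Md_F passed at 0.35 (adjusted p 1.5e-05) and L1Md_F2 turned positive and passed at 0.12 (adjusted p 0.0266). These calls were made after leaving out a library picked for its high values. The WT coefficient of variation (SD over mean) of L1Md_F2 thereby went from 14.2% to 0.33%. L1Md_F3 did not pass in that fit.

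**Figure D1:**
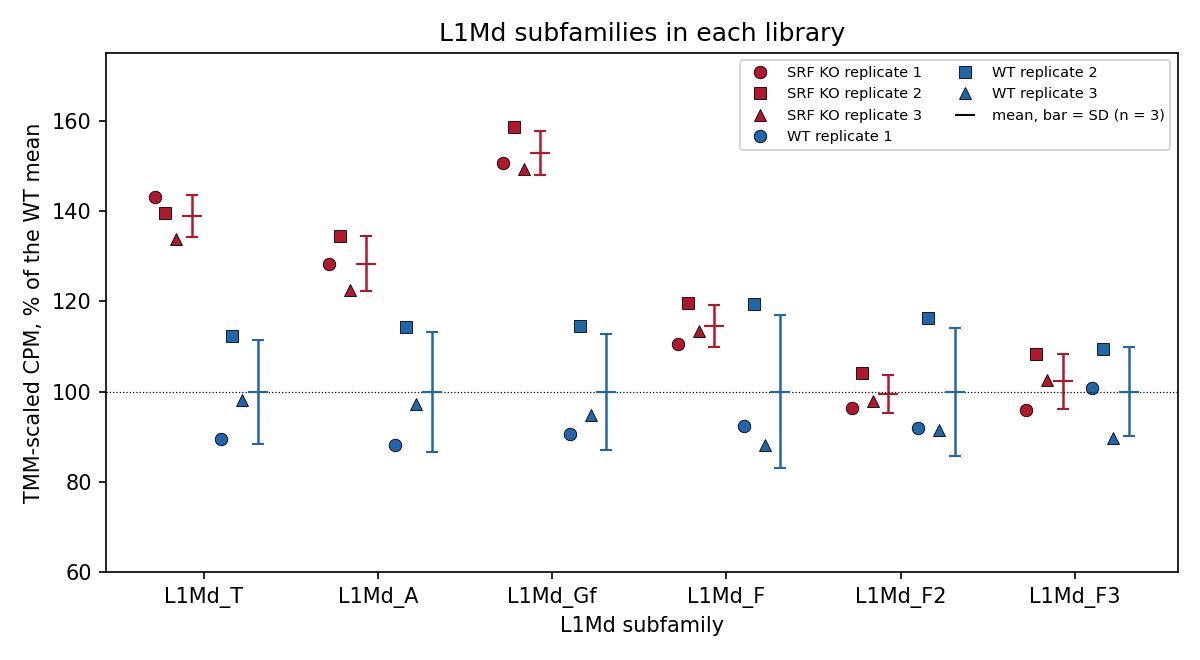
TMM-scaled CPM of the 6 L1Md subfamilies in each library as a percentage of that subfamily's WT mean. Symbols are libraries and bars are mean ± SD (n = 3). For L1Md_T, L1Md_A and L1Md_Gf all 3 SRF KO libraries lie above all 3 WT libraries, and for the F types WT replicate 2 lies among or above the SRF KO libraries.

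Comparing subfamilies within a library removes the library scaling. L1Md_T made up 56.7%, 54.2% and 54.8% of L1Md counts in SRF KO and 47.9%, 48.2% and 50.4% in WT. L1Md_Gf made up 1.49%, 1.53% and 1.52% against 1.21%, 1.23% and 1.21%. L1Md_F2 made up 22.4%, 23.7% and 23.5% in SRF KO and 28.9%, 29.3% and 27.6% in WT. These 3 shares separated the groups, WT replicate 2 included, upward for L1Md_T and L1Md_Gf and downward for L1Md_F2. That of L1Md_F3 was also lower without overlap. The share of L1Md_A was higher by a narrow gap (lowest SRF KO library 9.44%, highest WT library 9.41%), and that of L1Md_F overlapped. Shares of one total are bound to each other, so the fall of L1Md_F2 is not separate from the rise of L1Md_T.

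Per count of L1Md_F2 there were 2.38 ± 0.131 counts of L1Md_T in SRF KO, against 1.71 ± 0.102 in WT (SD, n = 3). The ratio of L1Md_A was 0.415 ± 0.0126 against 0.322 ± 0.0174, that of L1Md_Gf 0.0653 ± 0.000995 against 0.0425 ± 0.00124 and that of L1Md_F 0.118 ± 0.000675 against 0.103 ± 0.0033. These 4 ratios did not overlap between the groups, whereas the ratio of L1Md_F3 did, at 0.331 ± 0.00922 and 0.324 ± 0.026. Such ratios show that the subfamilies changed unequally, not which of them stayed the same. They have no test here, since the rows were picked as members.

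**Figure D2:**
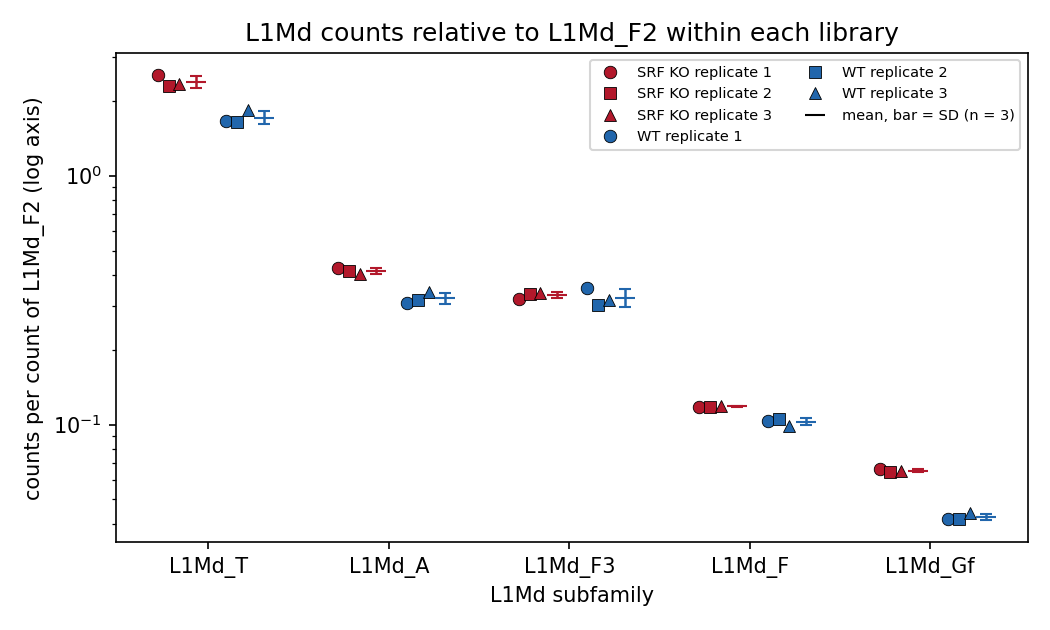
Counts of 5 L1Md subfamilies per count of L1Md_F2 in the same library, on a log axis, with mean ± SD (n = 3). WT replicate 2 lies with the other WT libraries for L1Md_T, L1Md_A and L1Md_Gf, and the groups overlap for L1Md_F3 alone.

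Across all members, 5 passed the test as higher and 6 as lower in SRF KO, or 7.97% of 138. Over all rows tested 41.1% passed, 20.4% as higher and 20.7% as lower, and over transposable element rows outside LINE 18.7% passed. Of those other elements, 6.34% were higher and 12.4% lower. The values of SRF KO and WT did not overlap for 25 members, or 18.1%, against 51.4% of all rows and 31.4% of the other elements. In 10 of these members SRF KO was higher, where all rows gave 25.3% and the other elements 9.37%, and in 15 it was lower, where they gave 26.1% and 22%. At an unadjusted p under 0.05 there were 8 members higher and 11 lower. The median log2 fold change of the members was -0.07, beside -0.02 over all rows tested. All 138 members passed the filter on low counts, with mean counts from 10.7 to 38810 and a median of 460.

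The split of these calls moved with the libraries and the scaling. Without WT replicate 2 there were 20 members higher and 7 lower, and the median turned to 0.03. The share of all rows that passed was also larger in that fit, at 48.1%, and the members stayed under it. With scaling factors from transposable element rows alone there were 11 higher and 1 lower and a median of 0.01, where 32.2% of all rows passed. Without SRF KO replicate 2 there were 4 higher and 8 lower and a median of -0.13. The lower calls were 0 without SRF KO replicate 1 by edgeR (7 at an unadjusted p under 0.05), 2 with SRF KO replicate 3 left out and 3 with WT replicate 1 left out. With any library but WT replicate 2 left out, between 30.4% and 38.5% of all rows passed, against 41.1% with all 6. A call lost in such a fit therefore does not show that the missing library drove it. DESeq2 made the same 5 higher calls and 0 lower ones, with 7 lower at an unadjusted p under 0.05. Of the 11 calls, 4 were made in each of the 12 other fits of the model: L1Md_T, L1Md_A, L1Md_Gf and the older subfamily L1M6B.

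**Figure D3:**
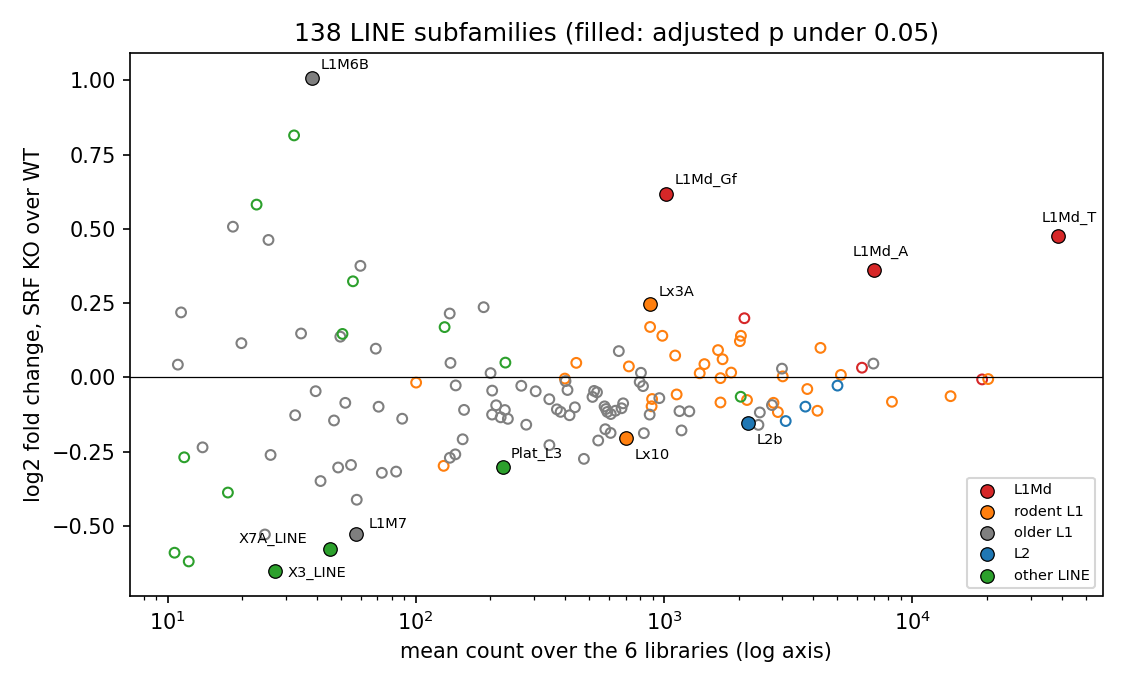
Log2 fold change (SRF KO over WT) of the 138 LINE members against mean count (log axis), coloured by group. The 11 members at an adjusted p under 0.05 are filled and named. Of the called rises, L1Md_T, L1Md_A and L1Md_Gf have the highest mean counts, followed by Lx3A. The called falls other than L2b have lower mean counts than L1Md_Gf.

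The other rodent L1 subfamilies, which are ancestors and relatives of L1Md, showed little difference with all libraries. Of 33, 1 was higher and 1 lower, and 16 of the fold changes were positive, with a median of -0.0026 and a range from -0.30 to 0.25. Lx3A was at 33.0, 36.0 and 31.6 CPM in SRF KO, against 26.3, 31.5 and 27.0 CPM in WT, so that the lowest SRF KO library barely exceeded WT replicate 2. Its log2 fold change was 0.25 (SE 0.08, adjusted p 0.0297). The call was lost without SRF KO replicate 1 (0.26) or 2 (0.20) or WT replicate 1 (0.19) or 3 (0.22). Lx10 was at 22.3, 22.2 and 23.4 CPM in SRF KO, against 25.3, 26.8 and 26.3 CPM in WT, without overlap. It fell by 0.20 on the log2 scale (SE 0.06, adjusted p 0.0235). The call was lost, at nearly the same value, without SRF KO replicate 1 (-0.19) or 2 (-0.19) or WT replicate 3 (-0.20).

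L1_Mus1 held the most counts of the rodent group. It was at 695, 738 and 679 CPM in SRF KO, against 682, 793 and 647 CPM in WT, where WT replicates lay on both sides of the SRF KO libraries. Its log2 fold change was -0.0058 with a 95% interval from -0.16 to 0.15. WT replicate 2 was the highest of the 6 libraries in 23 of the 33 rodent subfamilies and the highest of WT in 32. Without it 11 were higher and 1 lower, with a median of 0.09, in a fit where 48.1% of all rows passed. Among these 11, chosen after their values were seen, were L1VL4 (0.31, adjusted p 0.000716), L1_Mm (0.28, adjusted p 0.000593) and Lx (0.19, adjusted p 0.00194).

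Most of the 81 older L1 subfamilies are remnants of copies that spread in early mammals, and the HAL1 elements derived from L1 are counted with them. Their fold changes leaned below 0, at 63 of 81, with a median of -0.11, and 1 passed as higher and 1 as lower. The lower calls among them were 4 when SRF KO replicate 2 was left out, so that this count depends on the fit. WT replicate 2 was the highest of the 6 libraries in 48 of them, and without it the median was -0.01. L1M6B had 42, 50 and 57 counts in SRF KO and 27, 25 and 29 in WT, or 1.56, 1.89 and 1.97 CPM against 0.746, 0.972 and 1.01 CPM. The groups did not overlap, and its log2 fold change of 1.01 (SE 0.20, adjusted p 0.00163) was the largest of all members. Across the 6 fits without one library it lay between 0.86 and 1.10.

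L1M7 had 1.64, 2.0 and 1.24 CPM in SRF KO, against 2.49, 2.41 and 2.09 CPM in WT, close together but without overlap. It fell by 0.53 on the log2 scale (SE 0.19, adjusted p 0.0402). The call was lost without SRF KO replicate 1 (-0.53) or 3 (-0.36) or WT replicate 1 (-0.47). L1MEg, the older subfamily with the most counts, varied more between replicates than between groups. It was at 183, 302 and 266 CPM in SRF KO, against 158, 271 and 299 CPM in WT, and its log2 fold change of 0.05 had a 95% interval from -0.41 to 0.51.

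**Figure D4:**
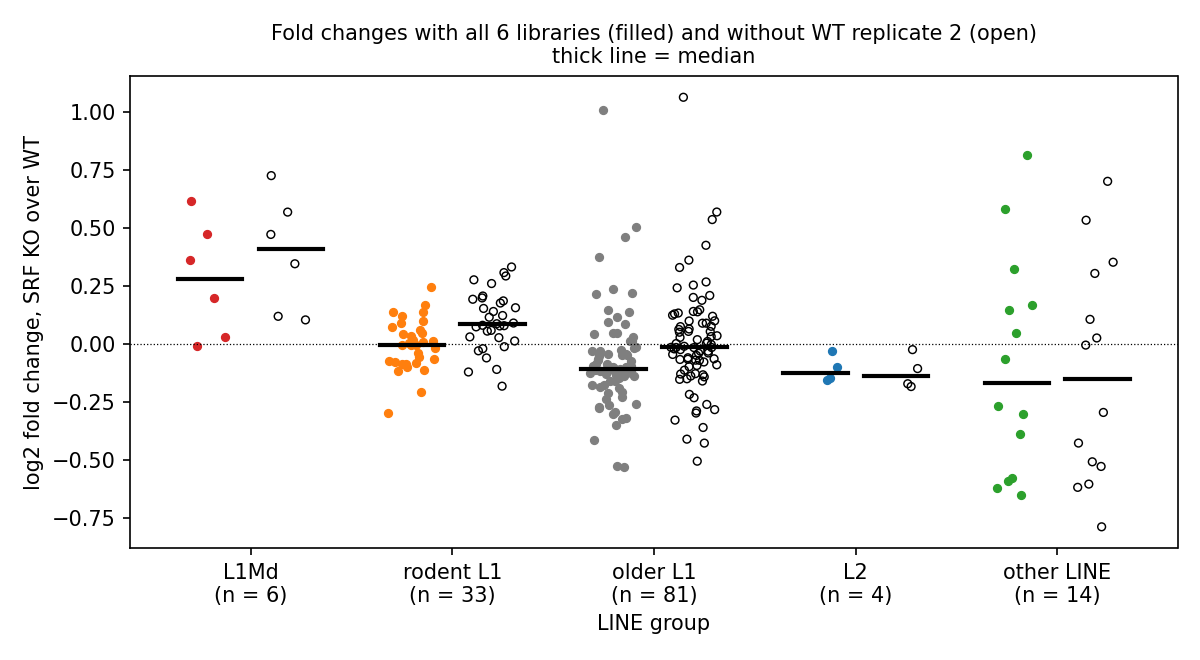
Log2 fold change of every member by LINE group, with all 6 libraries (filled) and without WT replicate 2 (open); thick lines are medians. Leaving the library out moves the medians of L1Md from 0.28 to 0.41, of rodent L1 from -0.0026 to 0.09 and of older L1 from -0.11 to -0.01, and that of L2 from -0.12 to -0.14.

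The L2 family did not share the high values of WT replicate 2, which was the highest WT library in 0 of its 4 subfamilies. All 4 fold changes were below 0, and 1 passed the test (25%, where 20.7% of all rows passed as lower). L2b was at 72.0, 73.8 and 68.8 CPM in SRF KO, against 79.4, 77.2 and 82.3 CPM in WT, without overlap. It fell by 0.15 on the log2 scale (SE 0.05, adjusted p 0.0306). The call was lost without SRF KO replicate 1 (-0.16) or 3 (-0.13) or WT replicate 1 (-0.16) or 3 (-0.13).

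L2c was at 99.0, 105.95 and 99.7 CPM in SRF KO, against 113, 105.8 and 118 CPM in WT. SRF KO replicate 2 and WT replicate 2 were nearly equal there, and its value of -0.15 (SE 0.05, adjusted p 0.0504) lay at the threshold. It passed when SRF KO replicate 2 (-0.17) was left out and when WT replicate 2 (-0.18) was. The subfamily named L2 was lower in every SRF KO library, at 122, 130.2 and 121 CPM, than in any WT library, at 130.8, 131 and 138 CPM, but did not pass (-0.098, 95% interval from -0.21 to 0.01). L2a had -0.03, with an interval from -0.14 to 0.08. The family summed to 470 ± 17.4 CPM in SRF KO, against 501 ± 16.1 CPM in WT (SD, n = 3).

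Of the 14 other LINE members, 3 passed the test as lower and 11 did not pass. That is 21.4%, near the 20.7% of all rows that passed as lower. Plat_L3, a CR1 element, was at 6.88, 7.29 and 6.60 CPM in SRF KO, against 8.70, 8.55 and 8.30 CPM in WT, with a clear gap between the groups. It fell by 0.30 on the log2 scale (SE 0.09, adjusted p 0.018). X7A_LINE, also CR1, had 31, 33 and 39 counts in SRF KO and 66, 53 and 50 in WT and changed by -0.58 (SE 0.17, adjusted p 0.0171). X3_LINE, the RTE-BovB member, had 20, 21 and 18 counts against 49, 22 and 32 and changed by -0.65 (SE 0.24, adjusted p 0.0461).

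These calls were lost in some fits with a library left out, in which fewer of all rows passed too. Their values stayed below 0 in those fits. The counts of X7A_LINE and X3_LINE were low. The call of X7A_LINE was lost without SRF KO replicate 1 (-0.52). That of Plat_L3 was lost, at a similar value, without SRF KO replicate 1 (-0.30) or 3 (-0.27) or WT replicate 1 (-0.28). That of X3_LINE did not hold when SRF KO replicate 1 (-0.68), 2 (-0.72) or 3 (-0.55) or else WT replicate 1 (-0.46) or 3 (-0.66) was left out. L3, the CR1 subfamily with the most counts, averaged 69.3 ± 3.38 CPM in SRF KO, against 72.6 ± 5.11 CPM in WT (SD, n = 3), with a log2 fold change of -0.07 and a 95% interval from -0.20 to 0.07. The 4 RTE-X members ranged from -0.59 (L5) to 0.58 (L4_B_Mam) and none passed with all libraries and the usual scaling. L4_B_Mam passed at 0.66 (adjusted p 0.0476) with scaling factors from transposable element rows alone. X7B_LINE, chosen after its values were seen, had 88 counts in SRF KO replicate 1 and between 13 and 36 in the other 5 libraries.

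Of the summed levels of the 5 groups, that of L1Md separated SRF KO from WT upward. The 6 L1Md rows held 32.3% of all member counts, the rodent rows 41.7% and the older L1 rows 18.6%. Summed L1Md was at 2884, 2945 and 2792 CPM in SRF KO, against 2137, 2660 and 2228 CPM in WT, without overlap, and its SRF KO mean was 123% of that of WT, or 132% without WT replicate 2. The rodent sum was 3315 ± 186 CPM in SRF KO, against 3355 ± 325 CPM in WT, and the older L1 sum 1456 ± 152 and 1530 ± 151 CPM (SD, n = 3), differences smaller than either SD. LINE elements took 15.7%, 16.1% and 16% of transposable element counts in SRF KO and 14.4%, 15.5% and 14.7% in WT. Without L1Md the shares overlapped, at 10.1%, 10.6% and 10.4% against 10.2%, 10.7% and 10.2%.

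**Figure D5:**
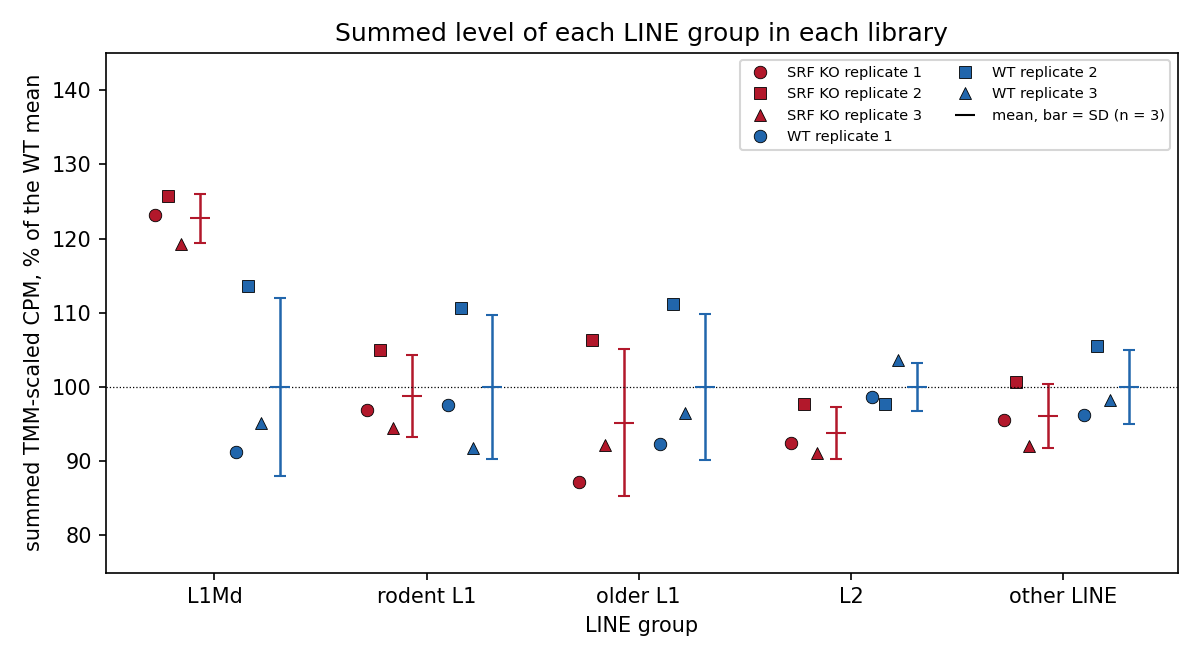
Summed TMM-scaled CPM of each LINE group per library, as a percentage of the WT mean of that group, with mean ± SD (n = 3). The 3 SRF KO libraries lie above the 3 WT libraries for L1Md and overlap with them for rodent L1, older L1 and the other LINE families; for L2, SRF KO replicate 2 and WT replicate 2 nearly coincide.

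The spread between replicates differed by group of elements. The median coefficient of variation of the L1Md rows was 4.09% in SRF KO and 13.1% in WT, where counting error alone gives 1.23%. In the rodent rows it was 6.18% and 11.4%, and in the older L1 rows 10.3% and 12.2%. Counting error alone gives 2.43% in the rodent and 6.52% in the older L1 rows. Without WT replicate 2 the WT values were 4.91% for L1Md, 2.51% for rodent and 4.44% for older L1 rows. Leaving out a library picked for its high values narrows the spread by itself. The older L1 value then lies under that of counting error, so these values are poor estimates of spread. For L2 the values were 3.78% in SRF KO and 3.15% in WT. No test of spread was made.

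Other classes of transposable elements differed in how many rows passed. Of 35 SINE rows, 1 was higher and 15 were lower, with a median of -0.15 on the log2 scale, and of 148 DNA transposon rows 1 was higher and 21 were lower, with a median of -0.11. Of 492 LTR rows, 41 were higher and 49 lower. As shares, 45.7% of SINE, 14.9% of DNA and 18.3% of LTR rows passed, beside 41.1% of all rows. WT replicate 2 exceeded the other WT libraries there by a median log2 ratio of 0.094 in SINE, 0.095 in DNA and 0.092 in LTR rows, against 0.24 in LINE rows. By the share of rows in which it was the highest library, SINE rows came first, at 91.4% against 54.7% of LINE rows. Whether the LINE rows differ from these classes was not tested.

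Genes known to act on LINE elements were then examined. Of 29 genes for transcriptional silencing, 2 were higher and 10 lower, with a median log2 fold change of -0.08. Dnmt3a, a de novo DNA methyltransferase, rose by 0.88 (adjusted p 4.6e-08), while its cofactor Dnmt3l fell by 0.52 (adjusted p 4e-06). Kdm1a, a histone demethylase, and Chaf1b, a subunit of the chromatin assembly factor, fell by 0.31 and 0.36. The HUSH subunit genes Mphosph8, Fam208a and Pphln1, chosen after their values were seen, had -0.25, -0.05 and 0.02 and did not pass (adjusted p 0.0564, 0.629 and 0.873). Setdb1, Dnmt1 and Uhrf1, chosen in the same way, were among the 10 lower, at -0.12, -0.24 and -0.21 (adjusted p 0.0497, 0.00172 and 0.00669).

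Of 21 genes that restrict LINE RNA or its reverse transcription, 1 was higher and 9 were lower, with a median of -0.15. Apobec3, a cytidine deaminase, averaged 105 ± 0.39 CPM in SRF KO, against 171 ± 3.3 CPM in WT (SD, n = 3), and changed by -0.71 on the log2 scale. Rnaseh2b, a subunit of the ribonuclease that removes RNA from hybrids with DNA, fell by 0.48, the small-RNA nuclease gene Dicer1 by 0.30 and the helicase gene Mov10 by 0.27. Of 12 genes for LINE transcription or for marking its RNA, the methyltransferase gene Mettl3 was higher (0.18) and its partner Wtap lower (-0.15). These shares stand beside 41.1% of all rows passing, and their part in the L1Md values was not tested.

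Other features moved with the groups and thus with L1Md. Of 12 pluripotent cell markers 1 was higher and 5 were lower, where 20.4% of all rows passed as higher and 20.7% as lower. The higher one was Zfp42 (0.17). Pou5f1, Sox2, Utf1, Lin28a, Sall4 and Dppa4, named like Zfp42 after their values were seen, did not pass. Nanog fell by 0.79, Esrrb by 0.49, Dppa5a by 0.42 and Fbxo15 by 0.41, and the summed level of the list was between 5588 and 5715 CPM in SRF KO and between 6486 and 6978 CPM in WT. All 15 tested of 16 primitive endoderm markers were higher, summing to between 3165 and 3373 CPM in SRF KO and between 427 and 454 CPM in WT, and Ttr, 1 of the 16, had no count in any WT library. Examples were Cubn (5.88), Dab2 (3.68), Col4a1 (3.36) and Lama1 (2.76). All 16 markers of fibroblasts, which can serve as feeder cells, were higher, summing to between 1543 and 1876 CPM in SRF KO and between 747 and 870 CPM in WT, with Fbn1 at 1.38, Col5a2 at 1.22, Prrx1 at 1.13 and Col3a1 at 1.09 (log2 fold changes). WT replicate 2 had the lowest sum of the WT libraries in the pluripotent, endoderm and fibroblast lists alike.

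Of 12 nuclear noncoding RNAs, 7 were higher and 2 lower, summing to between 1034 and 1223 CPM in SRF KO and between 929 and 1023 CPM in WT, where WT replicate 2 was highest. Most of that sum was Malat1, an abundant RNA of nuclear speckles. Its SRF KO level of 870 ± 95.8 CPM stood against 804 ± 54.0 CPM for WT (SD, n = 3), and it did not pass (0.11, adjusted p 0.26). Neat1, the RNA of paraspeckles, did not pass either (-0.16, adjusted p 0.102). Both were chosen after their values were seen. Examples of those that rose were Tsix (1.37), Rian (1.10), Xist (0.90) and Meg3 (0.87). Tsix and Xist overlap on opposite strands, so that their reads may not be separated. Of 11 tested of 27 replication-dependent histone genes, whose messages usually but not always lack poly(A) tails, 4 were higher and 1 lower. The list summed to between 35.7 and 40.5 CPM in SRF KO. In WT it summed to between 21.8 and 27.2 CPM, and WT replicate 2 was lowest. Hist1h2be, Hist1h2bc, Hist1h1c and Hist1h4i rose by 1.75, 0.93, 0.87 and 0.34, single values that are uncertain because histone genes have near-identical copies. Beside the counts of these 5 lists, 20.4% of all rows passed as higher and 20.7% as lower. The part that the features of these 5 lists have in the L1Md values was not tested.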

How the data were processed

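The deposited file holds whole-number counts per gene and per transposable element subfamily in 6 libraries, without normalization, judged from its values. Per the labels' protocols, the authors cleaned the reads of adaptors, of low-quality sequence and of empty reads. Build mm10 and DESeq2 are named, with no role, per the submitters' processing notes. The aligner, counting program, annotation, strand setting and treatment of reads that fit several copies are not given in the sources used here, so reads of related L1 subfamilies may have been shared between them.

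Columns were matched to samples by name. The whole table was fitted in R 4.3.3 with edgeR 4.0.16 (filterByExpr with its minimum count of 10, TMM, quasi-likelihood test, no term for replicate number), and the LINE rows were read from it. Alternatives were DESeq2 1.42.0, no filter, other scalings, other thresholds, a replicate block and leaving out each library. Scripts were tested on simulated data. No pair of replicates agreed within sampling noise (chi-square per degree of freedom between 1.83 and 15.3). Counting error alone gives the member of median depth about 4.67%. Members, groups and gene lists were chosen with earlier results of these data known. Named are all L1Md and L2 rows and, in each other group, up to 5 rises and 5 falls past the threshold and the row with the most counts. For gene lists, up to 4 genes with the smallest p are named. Of 13 mitochondrial messenger RNAs looked for by name, 0 were among the deposited rows, so they were not analysed.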

Additional observations from a re-analysis of the deposited data

How the results depend on the processing

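The number of members higher was 11 and lower 1 with scaling from transposable element rows alone, where summed L2 was at -0.011 (log2 ratio). Asking for a log2 fold change of 1 or more in size gave 1 higher and 0 lower. Lower calls were also 0 at an adjusted p under 0.01 and under DESeq2, beside 11 and 7 at an unadjusted p under 0.05. Leaving out one library gave between 4 and 20 higher and between 0 and 8 lower, and moved L1Md_F2 between -0.068 and 0.12, reversed in the fit that lacks WT replicate 2. The cause was not tested. The median of L1Md and the summed level of L1Md stayed positive in the alternatives run for them. The labels do not say whether same-numbered libraries were paired. Their deviations from the group means correlated at 0.042, 0.203 and 0.096, which does not settle it. With a replicate block 10 were higher and 18 lower (2 and 10 of them older L1), where 49.4% of all rows passed, and among the named subfamilies L1Md_F (0.21) and L2c (-0.15) then passed. Among 20 named subfamilies 211 comparisons kept their call or their lack of one. Rows without a call could change sign among these, as L1MEg did from 0.05 to -0.19 without WT replicate 1. In 41 comparisons the direction was kept but the call was lost, some at an equal or larger fold change, and 7 gained a call. Depth limits members such as X3_LINE, with 18 counts in SRF KO replicate 3.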
